A study of Mus musculus with 21 samples.

Results

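Astrocytes are the glial cells that surround synapses, and cortical neuron cultures usually hold some of them. The 10 genes described here are commonly used to mark these cells: Slc1a2, Slc1a3 and Glul of glutamate clearance, Aqp4 and Gja1 of water and gap junction channels, Aldoc and Aldh1l1 of metabolism, Gfap and S100b of the cytoskeleton and calcium binding, and the transcription factor Sox9. The rule takes them by name and uses no measured value, though the list was drawn up with earlier results of these data known, and all 10 were found among the 24984 genes of the count table. The question was whether transcription of glial genes changes when the activity of the neuronal network is raised. All 10 passed the filter on low counts, which left 16959 genes.

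BrU-seq reads newly made RNA: bromouridine (here 2 mM, over the last 30 min) is taken up into transcripts during synthesis, which are then isolated and sequenced. It was applied to cortical cultures of CD1 mice of mixed sex on day 17 of culture. All cultures first stood for 30 min with the solvent DMSO or with 25 µM MM401, a peptide-like inhibitor of the contact between the histone methyltransferase MLL1 (gene Kmt2a) and its partner WDR5. Bicuculline (40 µM), which blocks GABA-A receptors and so raises network activity, or water then followed for 1 h or 4 h. The 7 groups were DMSO with water for 4 h, DMSO with bicuculline for 1 h and for 4 h, MM401 with water for 1 h and for 4 h, and MM401 with bicuculline for 1 h and for 4 h. Each had 3 biological replicates per the labels. One library of MM401 with water for 4 h held 316741 counts, 0.503% of the median of the others, and was left out, so that this group had 2 libraries and 20 libraries were used. A DMSO group in water for 1 h was not analysed here, and the 1 h response in DMSO was therefore taken against water for 4 h. In these whole cultures no cell type was separated, so that a change in the number of astrocytes and a change in the RNA made per astrocyte cannot be told apart.

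Astrocytes take up the glutamate that neurons release through the transporters GLT-1 (Slc1a2) and GLAST (Slc1a3). Glutamine synthetase (Glul) turns it into glutamine, which is passed back to neurons. Aquaporin-4 and connexin 43 (Gja1) carry water and couple neighbouring astrocytes, and Sox9 is a transcription factor that sets and keeps astrocyte identity.

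The 20 libraries held 49886348 to 87939384 counts in genes. In all 4 bicuculline comparisons the activity-induced genes Fos, Npas4 and Bdnf had log2 fold changes of 1.18 to 4.43 (edgeR adjusted p at most 2.57e-05). Replicate 1 of DMSO with water for 4 h was the lowest of its group for all 10 astrocyte genes, against 44.6% of all tested genes.

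Levels between genes were set as CPM (read counts scaled by TMM to a common library size) per kb of gene span, since reads over introns were counted too. Over the 20 libraries the mean level was 8.73 CPM per kb for Gfap, 7.35 for Glul, 6.86 for Sox9, 5.61 for Slc1a2 and 5.51 for Slc1a3. Aldoc followed at 4.17, Aqp4 at 2.90, Gja1 at 2.14, Aldh1l1 at 1.03 and S100b at 0.131 CPM per kb. The median of all tested genes was 0.592 CPM per kb, so that 9 of the 10 astrocyte genes lay above it and S100b lay below it. Libraries of a group overlapped between Gfap and Glul in 6 of the 7 groups, between Glul and Sox9 in 4, between Sox9 and Slc1a2 in 3 and between Slc1a2 and Slc1a3 in 5, and the order of these neighbours is not firm. Further down, the overlap was in 4 groups for Slc1a3 and Aldoc, in 4 for Aldoc and Aqp4 and in 2 for Aqp4 and Gja1. Gja1, Aldh1l1 and S100b did not overlap with their neighbours among these 3 in any of the 7 groups.

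How closely replicates agreed differed by gene. The median within-group coefficient of variation of CPM was 4.02% for Glul, 4.57% for Slc1a2 and 7.18% for Sox9. It was 25.5% for Aldoc, 24.3% for Gfap and 20.98% for S100b. For Gfap, the library numbered 3 was the highest in 5 of the 6 groups of 3 libraries, and the library numbered 1 was the lowest in 5. This was not particular to Gfap. The library numbered 1 was the lowest in 5 groups for Aldoc and in 4 for Slc1a2, S100b and Aldh1l1. It was the lowest in 3 for Slc1a3, Glul and Sox9, and in 2 for Aqp4 and Gja1. Number 3 was also the highest in 5 for Aldh1l1.

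**Figure D1:**
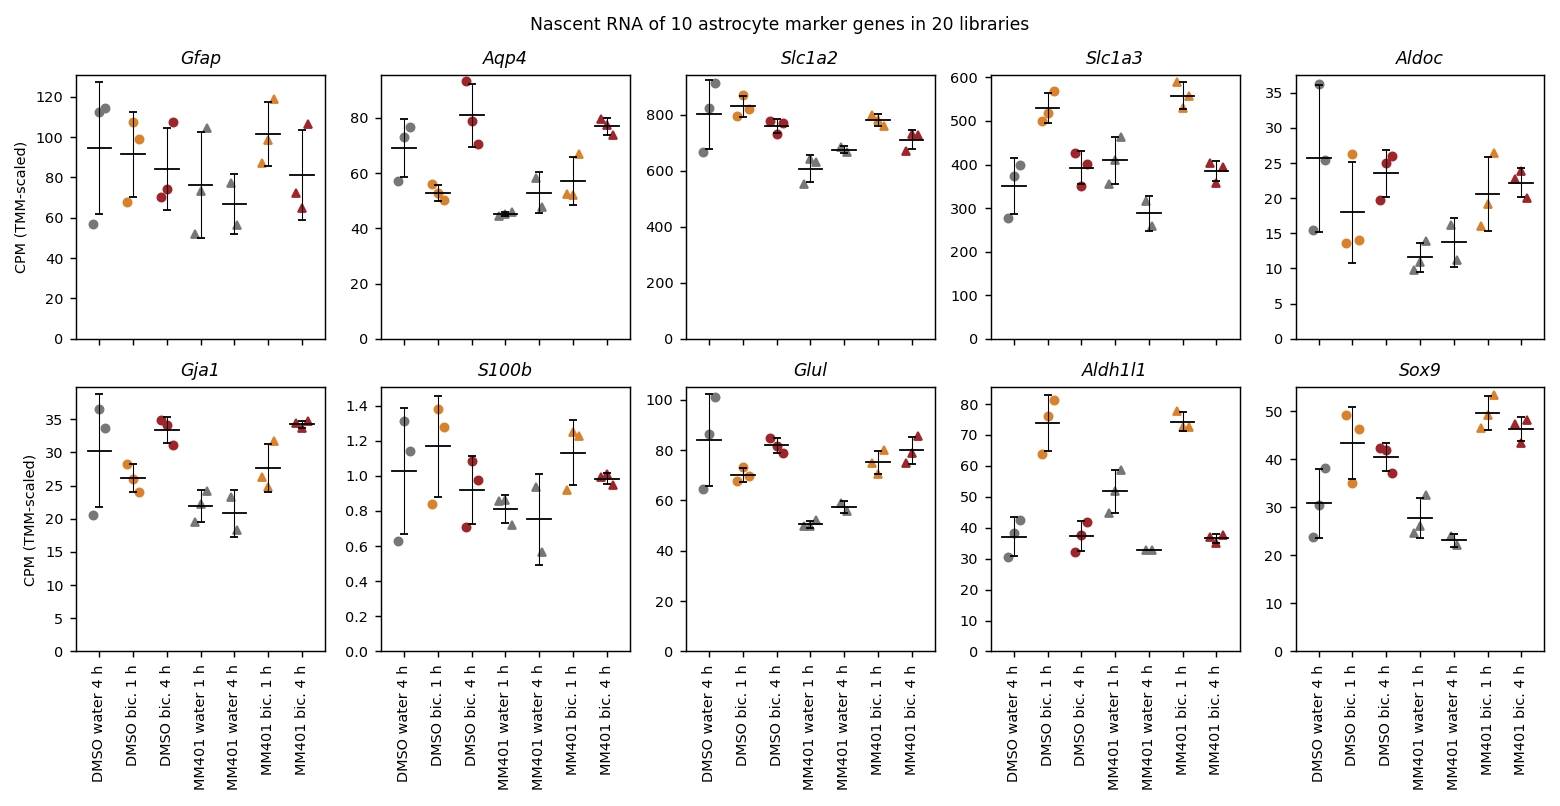
TMM-scaled CPM of the 10 astrocyte marker genes (vertical axes, from 0) in each library of the 7 groups (horizontal axis), with circles for DMSO, triangles for MM401, grey for water, orange for bicuculline for 1 h and red for 4 h. Black lines are group means and bars are SD. Sox9 and Aldh1l1 are high with bicuculline for 1 h, and Aldh1l1 with bicuculline for 4 h in DMSO lies between 32.2 and 41.9 CPM.

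These 3 promoters are shown because they belong to genes with contrasting courses: Aldh1l1 and Slc1a3 were both called lower at 4 h than at 1 h of bicuculline, and Glul was called in neither direction. The windows of 300 bases span the start site in RefSeq (build GRCm38.p6, 5′ to 3′ on the gene's strand). Capitals mark matches to the AP-1, CRE, STAT or NFI motifs, and the only one among these 3 windows is a STAT match 96 bases before the Slc1a3 start site.
Aldh1l1, chr6:90550543-90550842, plus strand: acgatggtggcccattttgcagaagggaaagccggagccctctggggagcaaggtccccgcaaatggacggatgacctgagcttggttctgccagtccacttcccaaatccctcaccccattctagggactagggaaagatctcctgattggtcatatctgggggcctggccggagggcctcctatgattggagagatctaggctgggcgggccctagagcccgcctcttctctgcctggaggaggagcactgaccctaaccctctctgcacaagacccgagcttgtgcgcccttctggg
Slc1a3, chr15:8710758-8711057, minus strand: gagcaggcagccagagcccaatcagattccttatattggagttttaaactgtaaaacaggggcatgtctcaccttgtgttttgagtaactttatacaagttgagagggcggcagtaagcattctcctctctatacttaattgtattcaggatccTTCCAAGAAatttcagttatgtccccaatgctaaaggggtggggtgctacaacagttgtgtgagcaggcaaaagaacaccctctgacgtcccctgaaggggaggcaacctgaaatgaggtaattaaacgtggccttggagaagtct
Glul, chr1:153899679-153899978, plus strand: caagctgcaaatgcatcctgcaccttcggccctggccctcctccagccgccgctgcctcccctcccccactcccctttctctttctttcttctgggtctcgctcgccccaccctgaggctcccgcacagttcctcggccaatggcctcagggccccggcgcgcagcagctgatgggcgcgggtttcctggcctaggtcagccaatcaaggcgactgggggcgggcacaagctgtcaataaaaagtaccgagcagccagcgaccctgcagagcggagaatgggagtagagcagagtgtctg

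Promoters were found for 8 of the 10 genes, as 9 windows of 300 bases, 2 of them for Aldoc. The Slc1a2 window (chr2:102706188-102706487) lies inside the counted gene span, which begins at 102658688. The Aldoc window with the STAT matches of that gene (chr11:78323948-78324247) also lies inside its span. Each window was searched on both strands for TGANTCA (AP-1), TGACGTCA (CRE), TTCNNNGAA (STAT), the paired half-sites TTGGC and GCCAA with 5 bases between (NFI) and CANNTG (E-box). The AP-1 letters occurred in 1 gene, Gja1, at 19 bases before the start, where they overlap an E-box match, and in 7.81% of 32851 promoters of that length. STAT letters occurred in 3 genes (Gfap, Slc1a3 and Aldoc) and in 8.30% of all promoters. E-box letters occurred in 7 genes and in 72.3% of all. No CRE (1.79% of all) or NFI (0.0365% of all) letters occurred in the 9 windows, which describes these letters in these windows only.

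In DMSO, bicuculline for 1 h against water for 4 h gave a mixed picture: Aldh1l1, Slc1a3 and Sox9 were higher, Aqp4 and Glul were lower, and the other 5 genes were not called. These 5 calls of 10 stand beside 44.6% of all genes called in this comparison (20% higher and 24.5% lower). The median log2 change of the 10 genes was -0.00081, against -0.04 over all genes. Without replicate 1 of the water group, 2 were called higher and 3 lower, with 7892 of all genes called in place of 7557, and the median was -0.19. Libraries of the groups did not overlap for 3 of the 10, against 47.4% of all genes.

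Aldh1l1 encodes an enzyme of folate metabolism and showed the largest change. It stood at 63.9, 76.2 and 81.4 CPM with bicuculline for 1 h and at 30.4, 38.4 and 42.6 CPM with water for 4 h. Every stimulated library lay above every water library. The difference was 0.99 on the log2 scale (SE 0.12, edgeR adjusted p = 2.86e-06), and 0.87 without replicate 1 of the water group.

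Slc1a3 was at 501, 519 and 569 CPM with bicuculline for 1 h, against 278, 375 and 399 CPM in water. These groups did not overlap either, and the difference was 0.59 on the log2 scale (SE 0.12, edgeR adjusted p = 0.00037), and 0.45 without replicate 1 of the water group. Sox9 was at 49.2, 34.96 and 46.2 CPM against 23.9, 30.4 and 38.1 CPM. Replicate 2 of the bicuculline group lay below the highest water library, and the difference of 0.49 (SE 0.15, edgeR adjusted p = 0.0119) was 0.34 with an adjusted p of 0.0501 without replicate 1 of the water group and 0.39 with 0.0605 without replicate 1 of the bicuculline group.

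Aqp4, the water channel of astrocyte endfeet, was lower with bicuculline for 1 h, at 56.0, 52.7 and 50.2 CPM against 57.3, 73.2 and 76.8 CPM. The groups did not overlap, though the lowest water library came close, and the difference was -0.38 (SE 0.12, edgeR adjusted p = 0.0122). That call was lost without replicate 3 of the bicuculline group (adjusted p = 0.0654) and without replicate 2 or 3 of the water group (0.0688 and 0.0872), and the difference was -0.50 (0.00111) without replicate 1 of the water group. Glul was at 67.7, 73.3 and 69.8 CPM against 64.5, 86.3 and 101 CPM. These libraries overlapped, and the difference of -0.26 (SE 0.10, edgeR adjusted p = 0.0462) was no longer called without any single library of the 2 groups other than replicate 1 of water, with adjusted p from 0.0541 to 0.455. Without replicate 3 of the water group it was -0.09, and without replicate 1 it was -0.41 (adjusted p = 5.29e-05).

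Slc1a2, by far the most counted of the 10, was at 797, 871 and 821 CPM against 667, 823 and 912 CPM. The groups overlapped and the 95% interval of the log2 change ran from -0.13 to 0.24. For Gfap the interval ran from -0.74 to 0.64, or 0.598-fold to 1.55-fold. Gja1, Aldoc and S100b had log2 changes of -0.22, -0.51 and 0.16 with intervals that held 0. Aldoc was called lower, at -0.90 (edgeR adjusted p = 0.0317), without replicate 2 of the bicuculline group, which was at 26.3 CPM against 13.7 and 14.1 CPM in the others.

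Time differs along with treatment in that comparison. Within MM401, water alone can be set at 4 h against 1 h. Aldh1l1 was at 32.9 and 32.9 CPM in water for 4 h and at 44.7, 52.0 and 58.6 CPM in water for 1 h. The groups did not overlap, and it fell by 0.65 on the log2 scale (SE 0.14, edgeR adjusted p = 0.0255), a call lost without either 4 h library (adjusted p = 0.261 without replicate 1 and 0.218 without replicate 2) and without replicate 2 or 3 of the 1 h group. Slc1a3 had a difference of -0.51 (SE 0.13, adjusted p = 0.0811) in the same direction, and -0.60 with 0.0391 without replicate 1 of the 1 h group. Aldh1l1 was the only one of the 10 called there, beside 0.867% of all genes (0.265% higher, 0.601% lower), and 6 of the 10 had groups without overlap, against 31.9% of all genes. In the 1 h comparison in DMSO, treatment and time cannot be told apart.

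In DMSO, bicuculline for 4 h left 9 of the 10 genes without a call, in a comparison that called 49.2% of all genes (23.7% higher and 25.5% lower). Sox9 alone rose. Its libraries were at 42.3, 41.9 and 37.1 CPM with bicuculline and at 23.9, 30.4 and 38.1 CPM with water. The highest water library reached into the bicuculline group, and the difference was 0.39 (SE 0.15, edgeR adjusted p = 0.0371). Without replicate 1 of the water group it was 0.24 with an adjusted p of 0.163. The call was also lost without replicate 2 of the water group (adjusted p = 0.1) and without replicate 1 or 2 of the bicuculline group (0.101 and 0.0925).

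None of the 10 genes had groups without overlap at 4 h in DMSO, against 52.5% of all genes. Glul was at 85.0, 81.8 and 79.0 CPM, inside its water range, and its log2 change of -0.04 had a 95% interval from -0.25 to 0.18. Aldh1l1 was at 32.2, 37.6 and 41.9 CPM, close to its water libraries, with a change of 0.0022 and an interval from -0.25 to 0.25. Slc1a2 had an interval from -0.26 to 0.11 and Slc1a3 from -0.08 to 0.41. Aqp4 had a change of 0.23 that was called only without replicate 3 of the bicuculline group (0.32, edgeR adjusted p = 0.0403).

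Replicate 1 of the water group set several of these values. Without it, Slc1a2 and Glul were called lower at 4 h in DMSO, both by -0.19 (edgeR adjusted p = 0.0371 and 0.0267), and Gja1 was called lower at 1 h by -0.42 (adjusted p = 0.00251). Over all genes, 8167 were then called at 4 h in place of 8344. Aldoc at 1 h was -0.77 (adjusted p = 0.0502) and Gfap -0.31 (0.444) without it, and at 4 h Aldoc was -0.39, Gfap -0.43 and S100b -0.40, none of them called. The median log2 change of the 10 genes at 4 h in DMSO was -0.02 with this library and -0.16 without it.

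With MM401, where water of the same time was at hand, the log2 change of all 10 genes was above 0 at 1 h and at 4 h. At 1 h, 6 of the 10 rose and none fell, beside 39.9% of all genes called (18.1% higher and 21.8% lower). The 10 had a median log2 change of 0.47, against -0.0018 over all genes. Libraries did not overlap for 9 of the 10, against 51.1% of all genes, and the exception was Gfap.

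Sox9 showed the largest change of these 6 genes. It was at 46.4, 49.2 and 53.4 CPM with bicuculline for 1 h and at 24.6, 26.2 and 32.5 CPM with water for 1 h. The groups stood well apart, with a difference of 0.84 (SE 0.15, edgeR adjusted p = 0.000258). It kept its call without each of the 6 libraries in turn, at 0.76 to 0.97.

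All 3 genes of glutamate clearance rose as well. Glul was at 74.9, 70.7 and 79.9 CPM against 49.9, 49.8 and 52.3 CPM in water. Its libraries were close within each group and far apart between them, and the difference was 0.57 (SE 0.10, edgeR adjusted p = 0.000203). Slc1a3 was at 590, 529 and 556 CPM against 356, 410 and 463 CPM. Slc1a2 was at 800.0, 782 and 759 CPM against 551, 641 and 630 CPM. Neither transporter had overlapping groups, and the differences were 0.45 (SE 0.12, edgeR adjusted p = 0.00459) and 0.36 (SE 0.09, adjusted p = 0.00238).

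Aldh1l1 was at 77.8, 72.7 and 72.5 CPM with bicuculline for 1 h, against 44.7, 52.0 and 58.6 CPM with water for 1 h. With time matched, the groups stayed apart, and the difference was 0.52 (SE 0.12, edgeR adjusted p = 0.00172). Aqp4 was at 52.5, 52.0 and 67.1 CPM against 44.4, 45.3 and 46.0 CPM. It rose by 0.34 (SE 0.12, edgeR adjusted p = 0.029), a call that was lost without replicate 3 of the bicuculline group (0.22, adjusted p = 0.15) and without each water library.

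Aldoc, a glycolytic enzyme, was at 16.1, 19.2 and 26.4 CPM against 9.85, 10.9 and 13.9 CPM. The groups did not overlap, but the spread was wide, and the difference of 0.84 (SE 0.32) had an edgeR adjusted p of 0.0536, and of 0.0454 without replicate 1 of the bicuculline group. With the replicate number as a block Aldoc was called as well (0.83, SE 0.30, edgeR adjusted p = 0.0454), which made 7 calls of 10, beside 7291 of all genes in place of 6769. Gja1 (0.33), S100b (0.49) and Gfap (0.41) were also not called by edgeR in the fit of 20 libraries. DESeq2 called 8 of the 10 in this comparison, and edgeR with only the groups compared called 8, beside 6807 and 6987 of all genes.

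At 4 h with MM401, 5 of the 10 rose and none fell, beside 44.6% of all genes called (23% higher and 21.7% lower). The median log2 change was 0.45, against 0.02 over all genes, and 8 of the 10 had groups without overlap, against 66.6% of all genes. The water group of this comparison had 2 libraries, so that groups without overlap are more frequent. Without replicate 2 of that water group, when 5623 of all genes were called in place of 7572, the count was 2 of 10, Glul and Sox9, and Aqp4 (0.37, adjusted p = 0.0843), Gja1 (0.52, 0.0904) and Slc1a3 (0.25, 0.251) lost their calls.

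Sox9 was at 47.3, 43.4 and 48.1 CPM with bicuculline for 4 h and at 24.0 and 22.2 CPM in water. The groups were far apart, and the difference was 1.00 (SE 0.17, edgeR adjusted p = 0.000167). Gja1, which encodes the gap junction protein connexin 43, was at 34.4, 33.7 and 34.7 CPM against 23.3 and 18.3 CPM. The stimulated libraries were tightly grouped above both water libraries, and the difference was 0.72 (SE 0.18, edgeR adjusted p = 0.00437).

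Aqp4 was at 79.7, 77.3 and 73.8 CPM against 58.2 and 47.7 CPM, without overlap. It rose by 0.54 (SE 0.13, edgeR adjusted p = 0.00303). Glul was at 75.0, 78.8 and 85.8 CPM against 59.2 and 55.9 CPM, also without overlap, and rose by 0.47 (SE 0.12, edgeR adjusted p = 0.00268). Slc1a3, at 403, 359 and 394 CPM against 317 and 259 CPM, rose by 0.42 (SE 0.13, edgeR adjusted p = 0.0138).

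The transporter Slc1a2 overlapped at 4 h, with 672, 732 and 728 CPM against 684 and 666 CPM. Its log2 change was 0.07, with a 95% interval from -0.13 to 0.28. Aldh1l1 had a change of 0.15 and an interval from -0.13 to 0.44.

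**Figure D2:**
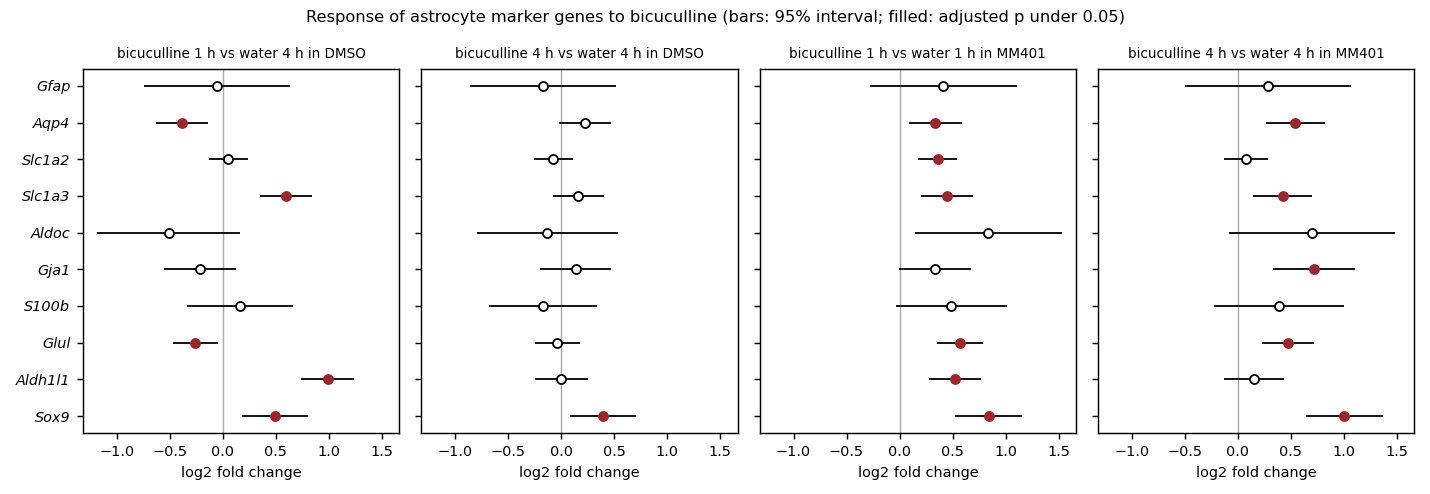
Log2 fold change (horizontal axis) of the 10 astrocyte marker genes with bicuculline against water in 4 comparisons, with 95% intervals as bars and filled points where the edgeR adjusted p was under 0.05. Under MM401 all points lie above 0, and 6 genes at 1 h and 5 at 4 h are filled; in DMSO points lie on both sides of 0.

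Whether the response differs between MM401 and DMSO was tested directly. At 4 h the interaction, which is the response under MM401 minus that under DMSO, was above 0 for all 10 genes, with a median of 0.48 against 0.03 over all genes. No gene of the 10, and 0% of all genes, was called by edgeR, and 3 of the 10 had an unadjusted p under 0.05, against 15% of all genes. The lowest adjusted p was that of Glul (0.51, SE 0.15, adjusted p = 0.229). At 1 h, with water for 4 h as the reference on both sides, the interaction was again above 0 for all 10 (median 0.56), none was called (0% of all genes), and 5 had an unadjusted p under 0.05, against 7.82% of all genes. These interactions share water libraries with the responses above.

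The pretreatments can also be compared at each treatment. With bicuculline, MM401 and DMSO differed by -0.09 to 0.20 at 1 h and by -0.10 to 0.19 at 4 h over the 10 genes, and none of the 10 had an unadjusted p under 0.05, against 3.18% and 7.72% of all genes. No call was made among the 10 at either time, against 0.0059% of all genes at 1 h and 0% at 4 h. Groups did not overlap for 0 of the 10 at 1 h, against 7.15% of all genes, and for 1 of the 10 at 4 h, Sox9, against 17.5%. Glul with bicuculline for 4 h was at 75.0 to 85.8 CPM with MM401 and at 79.0 to 85.0 CPM with DMSO, and the 95% interval of the difference ran from -0.25 to 0.18. For Sox9 the interval at 4 h ran from -0.12 to 0.50, and for Aldoc from -0.76 to 0.59.

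In water for 4 h, all 10 genes had lower means with MM401 than with DMSO. The median log2 difference was -0.45, against -0.01 over all genes. None of the 10 was called by edgeR, beside 0.0826% of all genes, and 7 of the 10 had an unadjusted p under 0.05, against 12.9% of all genes. Glul had the lowest adjusted p (-0.55, SE 0.12, adjusted p = 0.0873), with 59.2 and 55.9 CPM under MM401 against 64.5, 86.3 and 101 CPM under DMSO. It was the only one of the 10 without overlap (26% of all genes).

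This comparison depended on replicate 1 of DMSO with water for 4 h, the library in which all 10 genes were lowest. Leaving it out therefore lowers the difference in water and raises both interactions for all 10 by construction. Without replicate 2 or 3 of that group, 0 of the 10 and 0 of all genes were called in water and in both interactions. Without replicate 1, 6 of the 10 were called lower with MM401: Glul (-0.70), Gja1 (-0.75), Sox9 (-0.57), Aqp4 (-0.50), Slc1a3 (-0.43) and Slc1a2 (-0.36), with edgeR adjusted p from 5.23e-05 to 0.033. The number of all genes called was then 1272 in place of 14. The 4 h interaction was then called for Gja1 (0.79), Glul (0.67) and Sox9 (0.76), and the 1 h interaction for Gja1 (0.83) and Glul (0.80). Over all genes, the calls in that fit were 1551 for the 4 h interaction and 97 for the 1 h interaction, each in place of 0. The medians of the 10 genes were then -0.64 in water, 0.69 for the 4 h interaction and 0.72 for the 1 h interaction. Why replicate 1 stands apart was not tested.

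**Figure D3:**
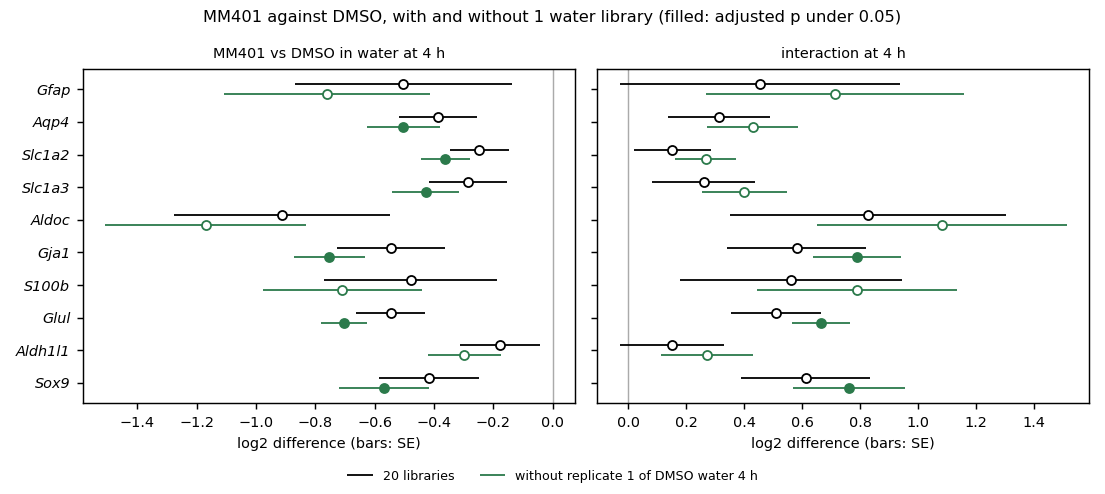
Log2 difference between MM401 and DMSO in water for 4 h (left) and the 4 h interaction (right) for the 10 genes, with SE as bars, from 20 libraries (black) and without replicate 1 of DMSO with water for 4 h (green). Filled points had an edgeR adjusted p under 0.05: 0 of 10 in black on both sides, and 6 and 3 in green. Without replicate 2 or 3 of the same group (not drawn), 0 of 10 were called on both sides.

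From 1 h to 4 h of bicuculline the 10 genes took different courses, and the same 3 genes were called in DMSO and in MM401. Aldh1l1 fell by 0.99 (SE 0.12, edgeR adjusted p = 3.64e-06) in DMSO and by 1.02 (SE 0.12, adjusted p = 2.92e-06) in MM401. Slc1a3 fell by 0.43 (SE 0.12, adjusted p = 0.00677) and by 0.54 (SE 0.12, adjusted p = 0.00133). Aqp4 rose by 0.61 (SE 0.12, adjusted p = 0.000475) and by 0.43 (SE 0.12, adjusted p = 0.00875).

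Over the same times in water, measured in MM401 alone, Aldh1l1 fell by 0.65, Slc1a3 had a difference of -0.51 without a call and Aqp4 one of 0.22 without a call (edgeR adjusted p = 0.0255, 0.0811 and 0.644). The time courses in bicuculline and in water were not tested against each other.

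The 3 calls of 10 stand beside 34.2% of all genes called in DMSO (19.1% higher, 15.2% lower) and 33.6% in MM401 (17.5% higher, 16% lower). All 3 genes had groups without overlap in both pretreatments, and the number without overlap was 6 of 10 in DMSO, against 43.3% of all genes, and 5 of 10 in MM401, against 45.1%. The 2 pretreatments share no library in these comparisons. Glul was at 67.7 to 73.3 CPM at 1 h and 79.0 to 85.0 CPM at 4 h in DMSO, a difference of 0.22 with an adjusted p of 0.104. Sox9 changed by -0.10 in both pretreatments, with 95% intervals from -0.41 to 0.21.

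Other genes of astrocytes were read from lists written with earlier results of these data known, leaving out the 10. Among 41 tested genes typical of astrocytes, 3 rose and 4 fell at 1 h in DMSO, and 6 rose and 1 fell at 4 h. With MM401, 19 rose and none fell at 1 h, and 23 rose and 1 fell at 4 h. Called genes made up 17.1%, 17.1%, 46.3% and 58.5% of the list in that order, against 44.6%, 49.2%, 39.9% and 44.6% of all genes. The medians of this list were 0.02, 0.12, 0.38 and 0.49 on the log2 scale, against -0.04, -0.02, -0.0018 and 0.02 over all genes. Without replicate 1 of DMSO with water for 4 h the DMSO counts were 2 higher and 12 lower at 1 h, and 4 higher and 6 lower at 4 h, and the medians were -0.11 and -0.03. In water for 4 h none of the 41 was called between MM401 and DMSO, and the median was -0.38. Leaving out the same library gave 21 of the 41 lower with MM401 and none higher, and a median of -0.52, with 1272 of all genes called.

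Tnc, the matrix protein tenascin C, led this list in every bicuculline comparison. It was at 31.3 ± 2.6 CPM (SD, n = 3) in DMSO with water for 4 h and at 80.8 ± 6.7 CPM (n = 3) with bicuculline for 1 h. It rose by 1.37 and 1.15 in DMSO and by 1.08 and 1.40 with MM401, at 1 h and 4 h, with edgeR adjusted p of at most 1.84e-08. In water alone, in MM401, Tnc fell by 0.47 from 1 h to 4 h (edgeR adjusted p = 0.0435). Slc6a11, a GABA transporter, fell by 0.60 at 4 h in DMSO (edgeR adjusted p = 1e-07), and the gap junction gene Gjb6 fell by 0.81 at 1 h in DMSO (adjusted p = 0.00222). With time matched, in MM401, Gjb6 had a difference of 0.30 at 1 h without a call (adjusted p = 0.273), and in water it differed by 0.50 between 4 h and 1 h without a call (0.471). Ntsr2, a neurotensin receptor of astrocytes, rose by 0.61 at 4 h in DMSO and by 1.04 at 4 h with MM401.

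Of 29 tested genes that are known to rise in reactive astrocytes, 12 rose and 1 fell at 1 h in DMSO, 11 rose at 4 h, and with MM401 11 rose at 1 h and 15 at 4 h, with no other falls. The shares called, 44.8%, 37.9%, 37.9% and 51.7%, were close to or below those of all genes in the first 3 comparisons (44.6%, 49.2% and 39.9%) and above the 44.6% of the last. All of these calls but 1 were rises, whereas 20%, 23.7%, 18.1% and 23% of all genes were called higher. The medians were 0.33, 0.41, 0.40 and 0.68. Without replicate 1 of DMSO with water for 4 h, the DMSO counts were 12 higher and 1 lower at 1 h and 10 higher at 4 h, and the medians were 0.16 and 0.34. Emp1, a membrane protein, rose by 2.13, 1.62, 1.64 and 1.73 in the 4 comparisons, from 3.02 ± 0.44 CPM (n = 3) in DMSO with water for 4 h to 13.3 ± 0.70 CPM (n = 3) with bicuculline for 1 h. Cd44, the hyaluronan receptor, rose at 1 h in DMSO, from 43.7 ± 4.3 CPM in water for 4 h to 123 ± 4.8 CPM (SD, n = 3 each). With time matched, in MM401, it rose by 0.70, from 68.1 ± 7.9 to 110 ± 12.2 CPM (n = 3 each), and in water alone it fell by 0.60 from 1 h to 4 h (edgeR adjusted p = 0.00873). Fbln5, a matrix protein, rose by 1.86 at 4 h in DMSO and by 1.98 with MM401. Many genes of this list are also made by other cells, neurons and microglia among them.

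Of 17 regulators of astrocyte identity tested, 8 rose and 2 fell at 1 h in DMSO, 10 rose at 4 h, 11 rose and 1 fell at 1 h with MM401, and 13 rose at 4 h, with no fall at either 4 h time. Called genes made up 58.8%, 58.8%, 70.6% and 76.5% of this list, against 44.6%, 49.2%, 39.9% and 44.6% of all genes. Without replicate 1 of DMSO with water for 4 h, 5 rose and 4 fell at 1 h in DMSO, and 9 rose and 2 fell at 4 h. Smad1, which carries BMP signals, rose by 0.82 and 0.64 in DMSO and by 0.66 at 1 h with MM401. Hes5, a target of Notch signalling, fell by 1.77 at 1 h in DMSO (edgeR adjusted p = 3.75e-07) and rose by 0.82 at 4 h with MM401 (adjusted p = 0.00341). With time matched at 1 h, in MM401, Hes5 had a difference of 0.14 without a call (adjusted p = 0.628), and in water it differed by 0.52 between 4 h and 1 h without a call (0.41). Stat3 rose by 0.55 at 1 h with MM401.

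Genes of glutamate, potassium and energy handling were led by transporters of fuel. Of 13 tested, 5 rose and 2 fell at 1 h in DMSO, 8 rose at 4 h, 5 rose and 1 fell at 1 h with MM401, and 7 rose at 4 h with none falling at either 4 h time. These calls are 53.8%, 61.5%, 46.2% and 53.8% of the list, beside 44.6%, 49.2%, 39.9% and 44.6% of all genes. The DMSO counts without replicate 1 of its water group were 5 higher and 3 lower at 1 h, and 6 higher and 2 lower at 4 h. Slc2a1, the glucose transporter GLUT1, rose by 2.11 and 1.15 in DMSO and by 2.07 and 1.23 with MM401. Slc16a1, the monocarboxylate transporter MCT1, rose by 1.46 to 1.62 in the 4 comparisons. The glutamine transporter Slc38a3 rose by 0.53 and 0.61 with MM401. Its interaction was 0.33 at 1 h, with water for 4 h as the reference, and 0.28 at 4 h. Neither was called (edgeR adjusted p = 0.617 and 0.375).

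**Figure D4:**
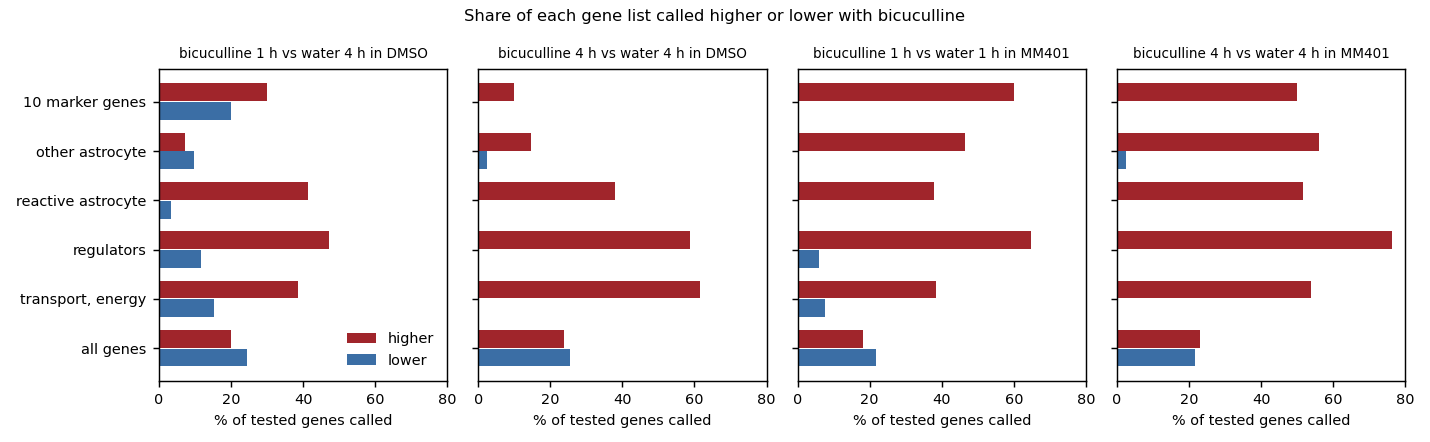
Percentage of tested genes called higher (red) or lower (blue) with bicuculline, for the 10 astrocyte marker genes, 4 lists of related genes and all genes, in 4 comparisons; bars start at 0. Of the 10 genes, 3 at 1 h and 1 at 4 h were called higher in DMSO, and 6 and 5 with MM401.

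The scaling of libraries bears on these directions. With TMM, the medians of all genes were -0.04 and -0.02 in DMSO and -0.0018 and 0.02 with MM401. Dividing by plain library totals gave medians of -0.23 and -0.30 in DMSO and of -0.21 and -0.06 with MM401. With that scaling the medians of the 10 genes were -0.21 and -0.30 in DMSO and 0.25 and 0.37 with MM401, and the calls were 2 higher and 2 lower, 1 lower, 2 higher and 3 higher, with 8654, 9687, 7817 and 6932 of all genes called. The median of the 41 other astrocyte genes then turned negative in DMSO, at -0.18 and -0.17. Genes of reactive astrocytes kept medians above 0, at 0.13, 0.13, 0.19 and 0.60, with 11, 6, 5 and 11 higher and 2, 0, 0 and 0 lower. Regulators were then 4 higher and 4 lower at 1 h in DMSO, and genes of glutamate, potassium and energy handling were 3 higher and 6 lower.

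Relatives of the 10 genes that neurons or other cells use were read beside them. Of 7 tested, 1 rose and 1 fell at 1 h in DMSO, 2 rose at 4 h, and with MM401 2 rose at 1 h and 4 at 4 h. The DMSO counts were 2 higher and 1 lower, and 3 higher, without replicate 1 of the water group. With 20 libraries the shares called were 28.6%, 28.6%, 28.6% and 57.1% of these 7 genes, against 44.6%, 49.2%, 39.9% and 44.6% of all genes. The neuronal glutamate transporter Slc1a1 rose by 0.28 and 0.41 in DMSO and by 0.33 at 1 h with MM401. At 4 h with MM401 its mean was 133 CPM with bicuculline and 121 CPM in water. Its 4 h interaction was -0.27 without a call (edgeR adjusted p = 0.28). Sox8, a relative of Sox9, fell by 0.37 at 1 h in DMSO, had a difference of -0.02 at 1 h with MM401, where time was matched (edgeR adjusted p = 0.929), and rose by 0.43 at 4 h with MM401.

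Markers of other cells were measured in the same libraries. Of 15 neuronal genes, 6 rose and 2 fell at 1 h in DMSO and 10 rose and 3 fell at 4 h, and with MM401 7 rose and 2 fell at 1 h and 8 rose and 3 fell at 4 h. The summed level of neuronal genes ran from 5325 to 6513 CPM in DMSO with water for 4 h and from 7961 to 8461 CPM with bicuculline for 4 h. The 41 other astrocyte genes summed to 2268 to 2893 CPM and to 2882 to 3004 CPM in the same groups. With MM401 at 4 h, neuronal genes summed to 6207 to 6331 CPM in water and 7192 to 7853 CPM with bicuculline, and the 41 astrocyte genes to 2060 to 2195 CPM and 2747 to 2805 CPM. At 1 h with MM401, neuronal genes went from 5385 to 5673 CPM in water to 6450 to 7548 CPM, and the astrocyte genes from 1971 to 2236 CPM to 2611 to 2911 CPM. Of 10 microglial genes, 1 fell at 1 h in DMSO, 2 rose at 4 h, none was called at 1 h with MM401 and 7 rose at 4 h. Of 11 genes of the oligodendrocyte lineage, 2, 3, 2 and 4 rose in the same order and none fell, and of 10 vascular and fibroblast genes 1, 2, 2 and 1 rose. In these comparisons 44.6%, 49.2%, 39.9% and 44.6% of all genes were called, against 53.3%, 86.7%, 60% and 73.3% of the neuronal genes. The neuronal counts in DMSO without replicate 1 of its water group were again 6 higher and 2 lower and 10 higher and 3 lower. Microglial genes were then 2 lower at 1 h and 2 higher at 4 h, oligodendrocyte genes 1 higher and 3 lower and then 3 higher and 1 lower, and vascular genes 1 and 0 higher. The part of other cells in the values of the 10 astrocyte genes was not tested.

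The genes most like each of the 10 in their profile of log2 CPM over the 20 libraries were found by Pearson's r, which libraries of a group share in common through treatment. For Aldh1l1 this was Parva (r = 0.98), for Slc1a3 Sh3pxd2b (0.96), for Aqp4 Celrr (0.96) and for Sox9 Myc (0.95). For Glul it was Tril (0.94), for Slc1a2 Htra1 (0.89), for Aldoc Ndrg2 (0.94), for Gja1 Angptl4 (0.94), for Gfap Wnt7a (0.86) and for S100b Cfl1 (0.85). Of the 100 genes most like each, other astrocyte genes numbered 11 for Glul and Slc1a2, 9 for Aldoc, 8 for Gfap, 6 for Gja1, 4 for Aqp4, 2 for S100b, 1 for Sox9 and 0 for Aldh1l1 and Slc1a3, and they made up 0.271% of the 15133 genes compared. The mean profile of the 10 was most like Acadl (0.95), Maob (0.92), Hmox1 (0.92) and Thrsp (0.91).

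In mm10 coordinates as the count table gives them, Slc1a2 spans chr2:102658688-102790784 and Slc1a3 chr15:8634123-8710807. Glul spans chr1:153899928-153909723, Aldh1l1 chr6:90550792-90599171, Sox9 chr11:112782209-112787757 and Gja1 chr10:56377299-56390419. Gfap spans chr11:102887335-102897200, Aqp4 chr18:15389393-15410982, Aldoc chr11:78323072-78327778 and S100b chr10:76253835-76261319. Reads over exons, introns and untranslated regions within these spans were counted alike. Slc1a2, Glul and Aldh1l1 each overlap 1 other listed gene (Gm13872, Mir8114 and LOC102631993), which held at most 3 counts in any library.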

How the data were processed

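Nascent RNA of 21 cortical culture libraries was given as raw counts per gene, deposited by the authors and, per the file headers, made with featureCounts over whole gene spans of mouse build mm10. The submitters' processing notes also name Bowtie2, UMI-tools, DESeq2 and deepTools. Strand use and annotation release were not given in the sources used here, so that counts of overlapping genes are uncertain.

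From these counts, one library with a very low total was left out, as the rule for choosing the samples states. Genes were kept with edgeR's filterByExpr (minimum count 10, total 15), libraries were scaled by TMM, and 7 group means were fitted with edgeR 4.0.16 (robust quasi-likelihood, R 4.3.3, limma 3.58.1) over 20 libraries. Calls are two-sided at a Benjamini-Hochberg adjusted p under 0.05 over 16959 genes, in 12 comparisons. The common biological coefficient of variation was 8.77%. Replicates differed by more than counting noise (chi-square per degree of freedom 6.14 to 78.5). The number of libraries limits the precision.

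The 10 genes, the gene lists and the tests were chosen with earlier results of these data known. All 10 are named, and of each list up to 3 called genes with the largest change and at least 1 CPM, plus Fos, Npas4, Bdnf and Kmt2a. Alternatives were DESeq2 1.42.0, all 21 libraries, plain library totals, no filter, a length correction, only the groups compared, a replicate block and leaving out each library. Of 27 correlations between same-numbered libraries, 10 were over 0.1 (range -0.23 to 0.24). All 3 were over 0.1 only for MM401 against DMSO with bicuculline for 4 h (0.107 to 0.172). With bicuculline for 1 h the same pretreatments gave -0.23 to 0.07. Whether the numbers pair libraries is therefore open. What a replicate number marks is not given in the labels.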

Additional observations from a re-analysis of the deposited data

How the results depend on the processing

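Of the values called with 20 libraries, 24 were followed through 306 alternatives, and 254 of these kept direction and call, 52 kept direction without the call and 0 changed direction. Where leaving out a single library turned a direction or moved a count, the cause was not tested. The number of the 10 genes called ran over the fits without 1 library of the groups compared from 3 to 5 for bicuculline for 1 h in DMSO, 0 to 2 for 4 h in DMSO, 5 to 7 for 1 h with MM401, 2 to 5 for 4 h with MM401, 0 to 6 for MM401 against DMSO in water, 0 to 2 for 4 h against 1 h of water, 0 to 3 for the 4 h interaction and 0 to 2 for the 1 h interaction. Over all genes, the calls in these fits ran in the same order from 6241 to 7892, 7287 to 8167, 5500 to 6545, 5491 to 6977, 0 to 1272, 14 to 140, 0 to 1551 and 0 to 97. With the replicate block the counts were 5, 1, 7 and 5 in the 4 bicuculline comparisons (8035, 8782, 7291 and 7892 of all genes), and that fit changed only the call of Aldoc at 1 h with MM401 (adjusted p = 0.0454) among the values reported. It gave 0 calls for MM401 against DMSO with bicuculline for 4 h, as without the block.

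Counts of the 10 genes follow with those over all genes in parentheses. DESeq2 called 1 (162) in MM401 against DMSO in water, 2 (275) in 4 h against 1 h of water and 0 (436) for the 4 h interaction. At 1 h with MM401, DESeq2 called 8 (6807), and edgeR with only the groups compared called 8 (6987). With all 21 libraries, the counts were 2 (5223) and 0 (6411) in DMSO and 3 (4599) at 1 h with MM401, 1 (3646) for 4 h against 1 h of bicuculline with MM401 and 0 (19) for water. At 4 h in DMSO the count was 2 (7941) with the length correction and 0 (8071) without the filter. With only the groups compared it was 3 (5819) and 0 (7227) in DMSO and 5 (5098) for 4 h against 1 h of bicuculline in DMSO, and with plain library totals it was 2 (7817) and 3 (6932) with MM401.

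Changes of direction occurred only in values that were not called. Leaving out 1 library gave ranges in DMSO at 1 h from -0.31 to 0.12 for Gfap, -0.073 to 0.40 for S100b and -0.064 to 0.17 for Slc1a2. At 4 h they were -0.12 to 0.096 for Aldh1l1, -0.073 to 0.28 for Gja1, -0.39 to 0.19 for Aldoc, -0.40 to 0.027 for S100b and -0.19 to 0.090 for Glul, and -0.040 to 0.50 for Aldoc between the water times. The length correction gave 0.087 for Gfap and -0.18 for Slc1a2 at 1 h, and -0.013 for Slc1a3, 0.068 for Aldoc, 0.0062 for S100b, 0.13 for Glul and -0.095 for Aldh1l1 at 4 h. Plain library totals gave -0.15 for Slc1a2 and -0.047 for S100b at 1 h, -0.057 for Aqp4, -0.12 for Slc1a3, -0.15 for Gja1 and -0.28 for Aldh1l1 at 4 h, and 0.016 for Slc1a2 between MM401 and DMSO with bicuculline for 4 h. Aldh1l1 at 4 h was -0.018 with all 21 libraries and -0.017 with only the groups compared.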

Other observations

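The library that was left out, the third of MM401 with water for 4 h, had few counts for the 10 astrocyte genes. It held 79 counts of Slc1a2, 25 of Slc1a3, 9 of Aldh1l1, 5 each of Gfap and Aqp4, 3 each of Gja1 and Glul, 2 of Sox9, 1 of S100b and 0 of Aldoc. As a share of the library, Slc1a2 was 0.0249% (exact 95% interval 0.0197 to 0.0311%), against 0.0711% and 0.0691% in replicates 1 and 2 of its group. Slc1a3 was 0.00789% (0.00511 to 0.0117%), against 0.0329% and 0.0268%. Aldh1l1 was 0.00284% (0.0013 to 0.00539%), which holds the 0.00342% of both other libraries. These intervals cover counting error only.

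Kmt2a, which encodes the target of MM401, was called higher with bicuculline for 1 h in DMSO, by 0.19 (SE 0.07, edgeR adjusted p = 0.0327), and had log2 changes of 0.10, 0.16 and -0.10 in the other bicuculline comparisons, none of them called.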
